A study of Mus musculus with 12 samples.

Results

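The transient outward and ultrarapid potassium currents of mouse cardiomyocytes rest on a small set of genes. Described here are 6 potassium channel and accessory subunit genes grouped with these currents, of which Kcnv2 encodes a silent subunit: Kcnip2, Kcnd2, Kcnd3, Kcna4, Kcna5 and Kcnv2. These 6 were chosen by name from a total of 20775 genes by symbol in both RPKM tables (reads per kilobase of gene, divided by library size), and they were selected on results of the knockout comparison described below, so their differences between genotypes are a description. No p value is given for them, and where they are counted among the genes called across the table, that count supports nothing. RNA was sequenced from E10.5 hearts (3 Ctrl and 3 cKO samples) and from cardiomyocytes isolated from adult hearts 4 weeks after tamoxifen (TAM), at 3 months of age (3 Ctrl and 3 icKO samples), all on a C57BL/6 background. The cKO embryos were Med30 f/f and carried Tnnt-Cre, a cardiac troponin T transgene active in developing cardiomyocytes. The icKO mice were Med30 f/f and carried α-MHC-MerCreMer, a tamoxifen-activated Cre driven by the α-myosin heavy chain promoter. The labels call the Ctrl samples wild type. In the study's text the controls at both stages were Med30 f/f mice without Cre, so all groups carried the floxed alleles. In these RNA data an effect of Cre therefore cannot be told apart from loss of Med30. The study reported no mortality or cardiac dysfunction after tamoxifen in α-MHC-MerCreMer mice lacking a floxed allele, but no such mice are among these samples. The adult Ctrl samples are labelled as 4 weeks post-TAM like the icKO. The floxed line came from 1 recombinant ES clone. Nothing in the labels says whether a sample is 1 animal or a pool, so p values measure only the spread between these samples.

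The fast transient outward current is carried by Kv4 pore subunits, encoded by Kcnd2 (Kv4.2) and Kcnd3 (Kv4.3), together with the calcium-binding accessory subunit KChIP2, encoded by Kcnip2, which promotes their surface expression and slows their inactivation. Kv1.4, encoded by Kcna4, carries a transient outward current that recovers slowly, and Kv1.5, encoded by Kcna5, carries the ultrarapid delayed rectifier. Kcnv2 encodes Kv8.2, a subunit that forms no channel on its own and joins channels of another Kv family. In rodents these currents set the early repolarization of the ventricular action potential, and Kv4.2 is more abundant on the epicardial than on the endocardial side of the wall.

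The reads behind each library, estimated from the spacing of its lowest values, ranged from 13.7 to 20 M at E10.5 and from 11.9 to 17.5 M at 4 weeks. For Kcnip2, 3 reads corresponded to between 0.0746 and 0.125 RPKM over the 12 samples, and values below that are near zero. These limits cover the error of counting alone. Med30, the targeted gene, was 10.6, 13.3 and 11.3 RPKM in the 3 Ctrl hearts and 1.38, 2.02 and 1.004 RPKM in the cKO hearts at E10.5. At 4 weeks it was 7.66, 7.45 and 7.66 RPKM in Ctrl and 3.81, 3.16 and 1.83 RPKM in icKO. It was called lower in both tables by limma, with log2 fold changes of −2.96 (SE 0.290) and −1.40 (SE 0.307), and the groups did not overlap. To be called here, a gene needed a Benjamini-Hochberg adjusted p under 0.05 together with more than 1 unit of log2 fold change, on log2(RPKM + 0.1). Over the 9517 genes tested at 4 weeks the median log2 fold change was 0.57 in the deposited RPKM, and it was 0.04 after median-ratio scaling, so a difference near that size depends on the scale. The share of calls that were higher was 76.8% in the deposited RPKM and 42.8% after median-ratio scaling. At E10.5 the median was −0.13, and higher genes made up 30.6% of calls in the deposited RPKM and 57.1% after scaling without the 20 most abundant genes.

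All 8 cardiomyocyte markers examined were present in every sample. At 4 weeks their summed level was 20285 to 21475 RPKM in Ctrl and 7894 to 9754 RPKM in icKO. Of the 8, 5 were called lower, where 8.45% of all genes tested were, while Actn2 had a higher mean in icKO (626 and 1139 RPKM). The summed ventricular markers (Myl2, Myl3, Irx4) went from 9956–11099 to 3438–5167 RPKM and the 4 atrial markers from 104–178 to 712–1185 RPKM, nearly all of it Nppa, while atrial Sln was at or near 0. The 8 fibroblast markers summed to 5.03–8.39 RPKM in Ctrl and 60.4–87.5 RPKM in icKO. Only 5 of them were tested, and all 5 were called higher, where 28.0% of all genes tested were. Of these, Col1a1, Col1a2, Col3a1 and Postn averaged above 1 RPKM, as testing required, through their icKO samples alone, so their calls are no support. Endothelial markers summed to 7.68–21.32 RPKM in Ctrl and 20.3–34.1 RPKM in icKO, macrophage markers to 2.83–4.50 and 6.69–9.44 RPKM, and erythroid markers to 0.971–7.36 and 2.84–7.29 RPKM. The 5 mural markers did not move together. Abcc9 went from 55.1 to 4.97 RPKM by group means, and the other 4 had higher icKO means (Rgs5 6.47 and 13.98, Cspg4 1.52 and 7.42, Pdgfrb 0.963 and 2.44, Kcnj8 0.601 and 1.06 RPKM in Ctrl and icKO), with 2 markers called higher and 1 lower. The 6 neuronal markers summed to at most 0.733 RPKM in any adult sample, with Snap25 at 0. The part of these shifts in the differences given below was not tested, and in bulk samples fewer cells of a type and less RNA per cell cannot be told apart.

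The promoters of the 3 Kv4-complex genes are shown because this trio held both the largest difference and the member with the most similar levels in both genotypes at 4 weeks. They are RefSeq sequences of GRCm38.p6, from 250 bases before to 50 after the start site, 5′ to 3′ on the strand of the gene. Kcnip2 lies on the minus strand (chr19:45816014-45816313), Kcnd2 on the plus strand (chr6:21215096-21215395) and Kcnd3 on the plus strand (chr3:105451640-105451939). The Kcnd2 and Kcnd3 windows, like those of Kcna4 and Kcna5, end upstream of the gene positions given below, which are from GENCODE M21. The start sites of these sources therefore differ, and matches or absences hold for the RefSeq windows alone. Capitals mark matches on either strand to a CCAAT box (CCAAT), a GC box (GGGCGG) or an E-box (CANNTG).
Kcnip2: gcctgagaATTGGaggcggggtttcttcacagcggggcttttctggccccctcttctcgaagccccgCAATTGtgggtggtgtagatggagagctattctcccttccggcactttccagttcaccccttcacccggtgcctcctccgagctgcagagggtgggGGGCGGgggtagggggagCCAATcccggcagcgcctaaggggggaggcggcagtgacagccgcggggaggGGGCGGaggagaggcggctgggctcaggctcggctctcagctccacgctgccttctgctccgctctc
Kcnd2: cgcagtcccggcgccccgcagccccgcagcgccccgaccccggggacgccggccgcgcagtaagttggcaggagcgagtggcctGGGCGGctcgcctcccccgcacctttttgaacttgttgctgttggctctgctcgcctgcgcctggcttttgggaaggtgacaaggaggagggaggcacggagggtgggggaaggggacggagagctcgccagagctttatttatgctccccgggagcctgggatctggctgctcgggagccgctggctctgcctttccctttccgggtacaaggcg
Kcnd3: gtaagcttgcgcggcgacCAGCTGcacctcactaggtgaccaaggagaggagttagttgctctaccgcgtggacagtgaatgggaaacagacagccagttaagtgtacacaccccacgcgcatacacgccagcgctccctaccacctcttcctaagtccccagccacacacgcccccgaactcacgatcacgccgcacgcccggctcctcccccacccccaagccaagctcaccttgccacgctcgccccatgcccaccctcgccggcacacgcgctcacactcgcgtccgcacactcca
The Kcnip2 window held 2 CCAAT boxes, 2 GC boxes and 1 E-box. The Kcnd2 window held 1 GC box and the Kcnd3 window 1 E-box. Of 32851 promoters in the same table, 37.4% held a CCAAT box, 35.7% a GC box and 72.3% an E-box, so none of these matches is rare. Kcna4 and Kcna5 were the only other members with an entry. Kcna4 held 3 GC boxes and 3 E-boxes, and Kcna5 held 2 E-boxes. None of the 5 windows held a TATA box (TATAAA, in 13.6% of all promoters), a GATA site (AGATAA, 11.2%), an Iroquois site (ACANNTGT, 7.38%) or a MEF2 site (CTAAAAATA, 0.517%). The GC content was 67.0% for Kcnip2, 68.7% for Kcnd2, 64.0% for Kcnd3, 67.7% for Kcna4 and 55.0% for Kcna5.

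In adult cardiomyocytes lacking Med30 the genes of the Kv4 complex differed from each other. The KChIP2 transcript was nearly absent, Kv4.2 was at 0.208 of its control level, and Kv4.3 overlapped between genotypes on the deposited scale. Kcnip2 (chr19:45791839-45816061, minus strand, GRCm38) was 53.3, 68.4 and 53.4 RPKM in Ctrl1, Ctrl2 and Ctrl3 and 0.147, 0.268 and 0.042 RPKM in icKO1, icKO2 and icKO3. The Ctrl values came from about 1418 to 2415 reads, and the icKO values from about 5, 9 and 1 reads, so icKO3 was below the 3-read level and the other icKO samples were above it by a few reads. Summed over the 3 samples and scaled to depth, Ctrl held 360 times the reads of icKO, with an exact 95% interval of 218 to 644 for counting error alone. Since reads were pooled, the interval leaves out the spread between samples and is no test of genotype. Kcnip2 had ranked 515th of all genes by Ctrl mean at this stage, and its log2 fold change of −7.95 (SE 0.416) was the lowest of the 9517 genes in that fit.

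**Figure D1:**
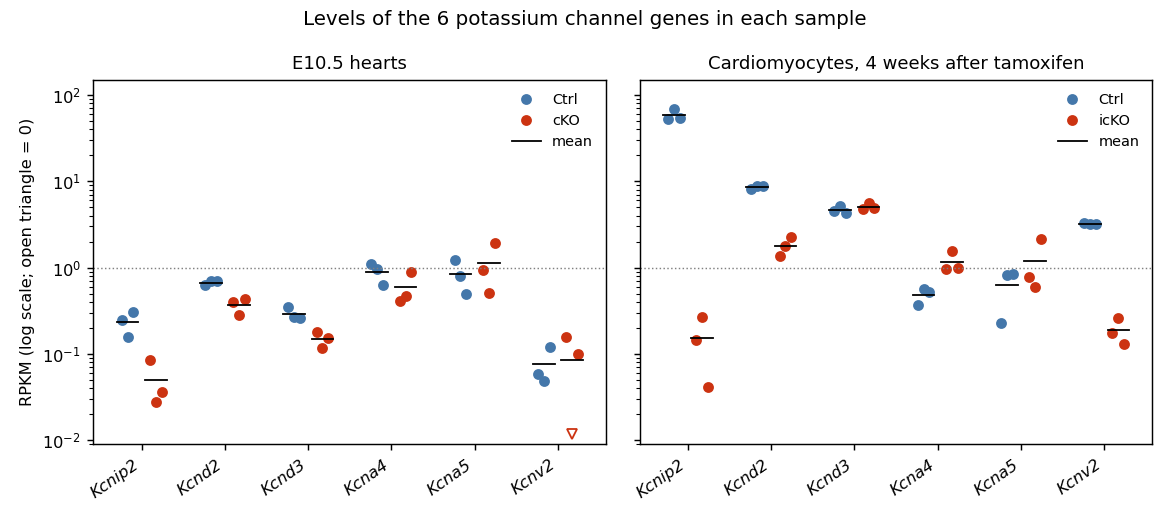
RPKM of the 6 genes on a log axis in every sample, E10.5 hearts at left and adult cardiomyocytes at right, with Ctrl in blue, knockout in red, group means as black lines and a dotted line at 1 RPKM. At 4 weeks Kcnip2 lies at 53.3 to 68.4 RPKM in Ctrl and at 0.042 to 0.268 RPKM in icKO, whereas the Kcnd3 samples of both genotypes lie between 4.34 and 5.64 RPKM.

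Kcnd2 (chr6:21215503-21729805, plus strand) was 8.15, 8.86 and 8.88 RPKM in the Ctrl samples and 1.35, 1.78 and 2.25 RPKM in the icKO samples. The groups lay far apart, with the icKO mean far below the Ctrl mean (log2 fold change −2.23, SE 0.206). Unlike Kcnip2, Kcnd2 kept 117 to 154 reads in each icKO library and was well above the counting floor. Kcnd3 (chr3:105452330-105674002, plus strand) was 4.50, 5.14 and 4.34 RPKM in Ctrl and 4.72, 5.64 and 4.96 RPKM in icKO. These groups overlapped (log2 fold change 0.13, SE 0.105), and against the median of all genes Kcnd3 stood at −0.44. Its sign turned with scaling, to −0.40 after median-ratio scaling, −0.39 after quantile normalization and −0.11 without the 20 most abundant genes. The antisense gene Kcnd3os overlaps Kcnd3 and shares 1.64% of its 50-base stretches. Whether strand was used in counting is not given in the sources used here.

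Ratios of genes within a sample do not depend on scaling between samples. The Kcnip2 to Kcnd2 ratio was 6.54, 7.72 and 6.02 in Ctrl and 0.109, 0.150 and 0.0187 in icKO. The Kcnd2 to Kcnd3 ratio was 1.81, 1.73 and 2.05 in Ctrl and 0.286, 0.316 and 0.454 in icKO. Kv4.2 was thus the more abundant Kv4 transcript in every Ctrl sample and Kv4.3 in every icKO sample.

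The Kv1 members were low in adult cardiomyocytes, and neither reached a mean of 1 RPKM over the 6 samples, so neither was tested. Kcna4 (chr2:107290639-107298502, plus strand) was 0.373, 0.573 and 0.521 RPKM in Ctrl and 0.961, 1.56 and 0.996 RPKM in icKO. Every icKO sample was above every Ctrl sample (log2 fold change 1.10, SE 0.259), from 24 to 48 reads in Ctrl and 57 to 125 reads in icKO. Against the median of all genes its log2 fold change was 0.53, and after median-ratio scaling it was 0.62 before that subtraction. The Kcna4 to Kcnd2 ratio was 0.0564 ± 0.00965 in Ctrl and 0.677 ± 0.219 in icKO (SD, n = 3 each), where Kcnd2 was itself lower.

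Kcna5 (chr6:126532551-126535412, minus strand) was 0.226, 0.829 and 0.840 RPKM in Ctrl and 0.785, 0.594 and 2.16 RPKM in icKO. The groups overlapped and 1 sample in each stood off, Ctrl1 low with 9 reads and icKO3 high with 74. The log2 fold change of 0.76 (SE 0.725) was 0.26 without Ctrl1 and 0.25 without icKO3, which put it at −0.31 and −0.33 against the median of all genes. Of the 50-base stretches of Kcna5, 2.81% occur also in Kcna6 and Gm26673, and Kcna6 was at most 0.028 RPKM in any adult sample.

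Kcnv2 (chr19:27322588-27337179, plus strand) was 3.30, 3.21 and 3.23 RPKM in Ctrl and 0.174, 0.258 and 0.131 RPKM in icKO. The Ctrl samples agreed closely and all icKO samples lay far below them, at 8 to 22 reads against 223 to 288 (log2 fold change −3.56, SE 0.184).

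Of the 6 genes at 4 weeks, 4 passed the filter on mean RPKM and 3 of them were called lower (Kcnip2, Kcnd2 and Kcnv2), where 8.45% of all genes tested were called lower. Kcnip2 and Kcnv2 passed the filter through their Ctrl samples alone. None of the 4 was called higher, where 28.0% of all genes were. In 3 of the 6 every icKO sample was below every Ctrl sample, and in 1 every icKO sample was above. Over 16289 genes with any value these shares were 15.1% and 46.1%. The members were selected on this contrast, so their counts are no evidence about the family. After median-ratio scaling 15.5% of all genes were called lower and 11.6% higher. With no filter on RPKM, Kcna4 was also called, as higher, where 3472 of 16289 genes were. That fit used the deposited RPKM. The log2 fold change of Kcna4 was below 1 after median-ratio scaling (0.62), quantile normalization (0.78) and scaling without the 20 most abundant genes (0.88).

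The plot of log2 fold changes under 4 scalings sets the members beside the median of all genes. The values of Kcnip2, Kcnd2 and Kcnv2 were negative under each scaling and those of Kcna4 positive. Those of Kcna5, whose groups overlapped, ran from 0.30 to 0.76.

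**Figure D2:**
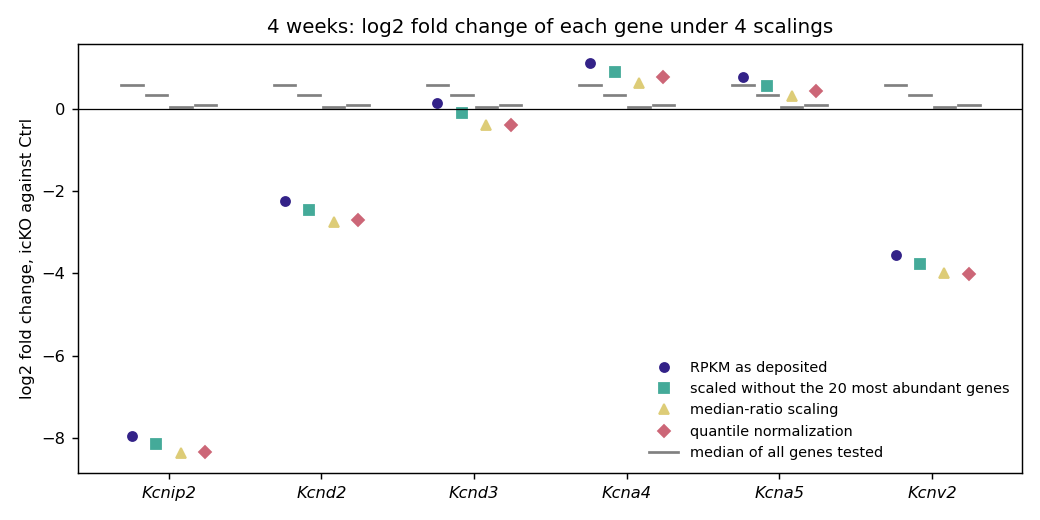
Log2 fold change of icKO against Ctrl at 4 weeks on the vertical axis for each gene, with 1 symbol for each of 4 scalings and grey lines at the median of all 9517 genes tested under that scaling. Kcnip2 runs from −7.95 to −8.37, Kcnd2 from −2.23 to −2.75 and Kcnv2 from −3.56 to −4.00, whereas Kcnd3 lies at 0.13 in the deposited RPKM and below 0 under the other scalings.

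In Ctrl cardiomyocytes the order of levels was Kcnip2, Kcnd2, Kcnd3, Kcnv2, Kcna5 and Kcna4, and the ranges of neighbours were apart except for Kcna5 and Kcna4. In icKO cardiomyocytes the order was Kcnd3, Kcnd2, Kcna5, Kcna4, Kcnv2 and Kcnip2. There Kcnd2, Kcna5 and Kcna4 overlapped as neighbours, as did Kcnv2 and Kcnip2. The summed RPKM of the 6 genes was 76.0 ± 9.55 in Ctrl and 9.59 ± 1.28 in icKO (SD, n = 3 each). Kcnip2 supplied 76.6% ± 1.82 of the sum in Ctrl and 1.62% ± 1.14 in icKO. Kcnd3 supplied 6.14% ± 0.271 in Ctrl and 53.6% ± 5.80 in icKO, the Kcna4 share went from 0.641% ± 0.0997 to 12.2% ± 3.02, and the Kcnd2 share from 11.4% ± 1.16 to 18.5% ± 2.51. Shares add up to the whole and so are not independent of each other.

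**Figure D3:**
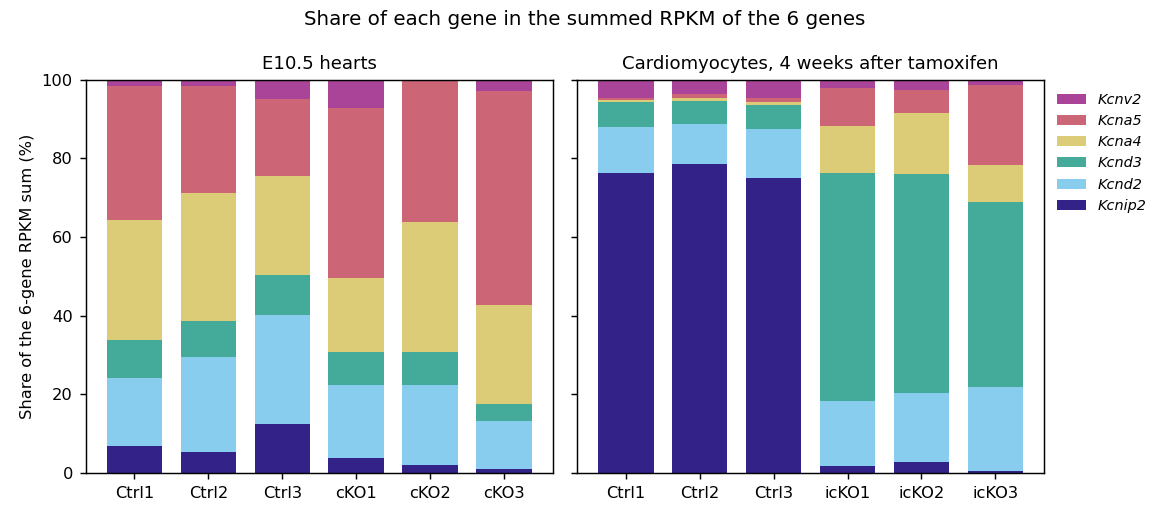
Share of each gene in the summed RPKM of the 6 genes, in percent, 1 stacked bar per sample, E10.5 hearts at left and adult cardiomyocytes at right. Kcnip2 fills 75.01% to 78.6% of each adult Ctrl bar and at most 2.65% of each icKO bar, where Kcnd3 fills 47.1% to 58.0%.

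At E10.5 all 6 genes were low, with no member above 1 RPKM in its mean over the 6 samples, and none passed the filter. Kcnip2 was 0.248, 0.157 and 0.309 RPKM in Ctrl hearts and 0.085, 0.028 and 0.036 RPKM in cKO. These are about 25 reads in all 3 Ctrl libraries together and 5 in the cKO libraries, and every cKO sample was at or below the 3-read level. The ratio of Ctrl to cKO reads scaled to depth was 4.70, with an exact 95% interval of 1.77 to 15.7 for counting error alone. That interval pools the libraries, leaves out the spread between samples and is no test of genotype. Kcnd2 was 0.623, 0.704 and 0.693 RPKM in Ctrl hearts and 0.400, 0.286 and 0.431 RPKM in cKO (log2 fold change −0.72, SE 0.149). Kcnd3 was 0.346, 0.271 and 0.258 RPKM in Ctrl hearts and 0.182, 0.118 and 0.152 RPKM in cKO (log2 fold change −0.64, SE 0.146). In these 3 genes every cKO sample was below every Ctrl sample, as it was in 17.3% of the 16562 genes with any value.

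The other 3 genes overlapped between genotypes at E10.5. Kcna4 was 1.11, 0.957 and 0.624 RPKM in Ctrl hearts and 0.410, 0.467 and 0.897 RPKM in cKO, with cKO3 inside the Ctrl range. Kcna5 was 1.22, 0.792 and 0.493 RPKM in Ctrl hearts and 0.944, 0.508 and 1.93 RPKM in cKO, with cKO3 the highest. Kcnv2 was 0.059, 0.049 and 0.122 RPKM in Ctrl hearts and 0.156, 0 and 0.1 RPKM in cKO, with no more than 14 reads in any library. No member was higher without overlap, as 5.52% of all genes were. Over the 10885 genes tested at this stage, 0.542% were called lower and 0.239% higher. With no filter, limma called 0 of the 6.

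The tables were normalized separately, so levels at the stages are set side by side without a test. The Ctrl mean of Kcnip2 was 0.238 RPKM in E10.5 hearts and 58.4 RPKM in adult cardiomyocytes, and those of Kcnd2 were 0.673 and 8.63 RPKM, of Kcnd3 0.292 and 4.66 RPKM and of Kcnv2 0.0767 and 3.24 RPKM. Kcna4 (0.896 and 0.489 RPKM) and Kcna5 (0.836 and 0.632 RPKM) did not share that order. In E10.5 Ctrl hearts these Kv1 genes had the highest means of the 6, but the ranges of Kcna4, Kcna5 and Kcnd2 overlapped each other, and in Ctrl3 Kcnd2 was above both Kv1 genes. The Kcnd2 to Kcnd3 ratio was 2.36 ± 0.488 in Ctrl and 2.49 ± 0.323 in cKO at E10.5 (SD, n = 3 each), with overlap, whereas at 4 weeks it separated the genotypes as given above. The Kcnip2 to Kcnd2 ratio was 0.356 ± 0.117 in Ctrl and 0.131 ± 0.0707 in cKO hearts, from the few reads just described. Summed ventricular markers were also lower in cKO hearts, at 1763–2136 RPKM against 2860–4886 RPKM in Ctrl, most of it Myl2, and Irx4 alone of the 3 was called lower. The 4 atrial markers summed to 1664–2228 RPKM in cKO and 2095–2695 RPKM in Ctrl, a lower mean with overlap. Lower too was the sum of the 8 cardiomyocyte markers, at 3608–4288 against 4435–5808 RPKM. None of the 8 was called, and Actn2 and Ttn had slightly higher cKO means. Macrophage markers summed to 4.94–6.82 RPKM in cKO and 8.71–11.4 RPKM in Ctrl, and Lyz2 made up most of that difference (3.77 and 7.72 RPKM by group means). Csf1r (0.411 and 0.405 RPKM) and Cd68 (1.57 and 1.67 RPKM) were close between genotypes. Erythroid markers summed to 26.9–130.9 RPKM in cKO and 15.02–39.7 RPKM in Ctrl. The highest erythroid sum was that of cKO1 alone, where Hba-a1 was 104.9 RPKM. The part of these markers in the values above was not tested.

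A further 40 genes were examined as relatives and partners of the members. Their lists were written with earlier results of these data known, so the counts are a description. Of these genes, 12 were tested at 4 weeks, where limma called 4 lower (Kcna7, Kcne1, Irx3 and Klf15) and 1 higher (Flna). Of all genes tested there, 8.45% were called lower and 28.0% higher. After each of 3 other scalings 7 partners were called lower, Kcng2 and Irx4 among the additions, and 11.1% to 15.5% of all genes were. At E10.5, 14 were tested, 2 were called lower (Kcne1 and Irx4) and 0 higher, where 0.542% of all genes were called lower and 0.239% higher. Flna was the only one of the 14 with a higher level and an unadjusted p under 0.05. The median log2 fold change of the tested partners was −0.79 at 4 weeks, where that of all genes was 0.57, and 0.01 at E10.5, where it was −0.13.

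Among the 7 other Kv4 and Kv1 pore subunits, Kcna7 alone was tested at 4 weeks. It encodes Kv1.7 and was 2.59, 2.56 and 2.42 RPKM in Ctrl and 0.692, 0.528 and 0.690 RPKM in icKO, so the groups lay apart (log2 fold change −1.84, SE 0.183, limma adjusted p = 1.755e-05). Kcna7 passed the filter on mean RPKM through its Ctrl samples alone, so its p value is part of the description and no support. The others were near zero in adult cardiomyocytes of both genotypes. Kcnd1 (Kv4.1) was at most 0.046 RPKM, Kcna1 at most 0.052 RPKM, Kcna2 at most 0.025 RPKM, and Kcna3 and Kcna10 were listed at 0. At E10.5 none of the 7 passed the filter. Kcna3 was 0.257 ± 0.0772 RPKM in Ctrl hearts and 0.580 ± 0.242 RPKM in cKO (SD, n = 3 each) with no overlap, as in 5.52% of all genes with any value. Of the other partner genes below the filter, Kcng1 (1.35 and 0.285 RPKM) and Kcnab2 (0.987 and 0.482 RPKM by group means) were lower in cKO with no overlap. Every cKO sample was below every Ctrl sample in 17.3% of all genes with any value.

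Among the silent subunits, Kcng2 was tested at 4 weeks. Kcng2, which encodes the silent subunit Kv6.2, was 30.1, 31.8 and 34.0 RPKM in Ctrl and 16.2, 20.5 and 19.2 RPKM in icKO and fell by 0.78 on the log2 scale (SE 0.104, limma adjusted p = 0.0001135). The change passed the test but was short of a log2 fold change of 1. Kcnv1, the nearest relative of Kcnv2, was listed at 0 in every adult sample.

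Of 13 auxiliary subunits, Kcne1 alone was tested at 4 weeks. Kcne1 encodes the small membrane subunit minK of slow delayed rectifier channels. It was 1.70, 1.38 and 2.49 RPKM in Ctrl and 0.542, 0.283 and 0.316 RPKM in icKO, with no overlap (log2 fold change −2.03, SE 0.305, limma adjusted p = 0.0002455). As with Kcna7, it passed the filter at 4 weeks through its Ctrl samples alone, so that p value is no support. At E10.5 Kcne1 was 3.76, 2.25 and 3.07 RPKM in Ctrl hearts and 1.46, 0.896 and 1.06 RPKM in cKO (log2 fold change −1.33, SE 0.261, limma adjusted p = 0.02798). That call was lost without Ctrl1, Ctrl3, cKO1 or cKO2, with adjusted p of 0.1032, 0.1114, 0.05169 and 0.08357. In adult cardiomyocytes the other KChIP genes were low in both genotypes. Kcnip1 was listed at 0 in every adult sample, and the adult maxima were 0.142 RPKM for Kcnip3 and 0.503 RPKM for Kcnip4. The Kv4 accessory peptidase-like genes Dpp6 and Dpp10 were at most 0.026 RPKM in adult samples. At E10.5 Kcnip3 ranged from 0.58 to 1.193 RPKM over the Ctrl hearts and from 1.056 to 1.691 RPKM over the cKO hearts. These ranges overlapped, and Kcnip3 was tested at that stage and not called. The highest E10.5 values of Kcnip4, Dpp6, Kcnip1 and Dpp10 were 0.899, 0.519, 0.227 and 0.025 RPKM.

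Among transcription factors linked to these channel genes, Irx3, Irx4 and Irx5 are Iroquois factors of the ventricular wall, and Klf15 is a Krüppel-like factor known to drive Kcnip2. At 4 weeks Irx3 was 9.51, 14.4 and 12.8 RPKM in Ctrl and 3.92, 5.15 and 2.80 RPKM in icKO (log2 fold change −1.63, SE 0.223, limma adjusted p = 0.0001364). Klf15 was 30.8, 27.0 and 20.2 RPKM in Ctrl and 12.51, 12.45 and 13.2 RPKM in icKO (log2 fold change −1.001, SE 0.143, limma adjusted p = 0.0001751). Klf15 stood at the fold threshold itself, and leaving out Ctrl1, Ctrl2, icKO1 or icKO2 took it to between −0.87 and −0.99. Irx4 was 6.59, 6.85 and 7.03 RPKM in Ctrl and 3.68, 3.35 and 4.71 RPKM in icKO and fell by 0.80 (SE 0.136, limma adjusted p = 0.0005119). Irx5 overlapped, at 3.205 ± 0.868 RPKM in Ctrl and 2.79 ± 0.518 RPKM in icKO (SD, n = 3 each). At E10.5 Irx4 was 16.04, 18.2 and 18.6 RPKM in Ctrl hearts and 6.54, 6.34 and 8.12 RPKM in cKO (log2 fold change −1.32, SE 0.131, limma adjusted p = 0.001734), while Klf15 was 1.37 ± 0.506 RPKM in Ctrl hearts and 1.45 ± 0.342 RPKM in cKO (SD, n = 3 each).

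**Figure D4:**
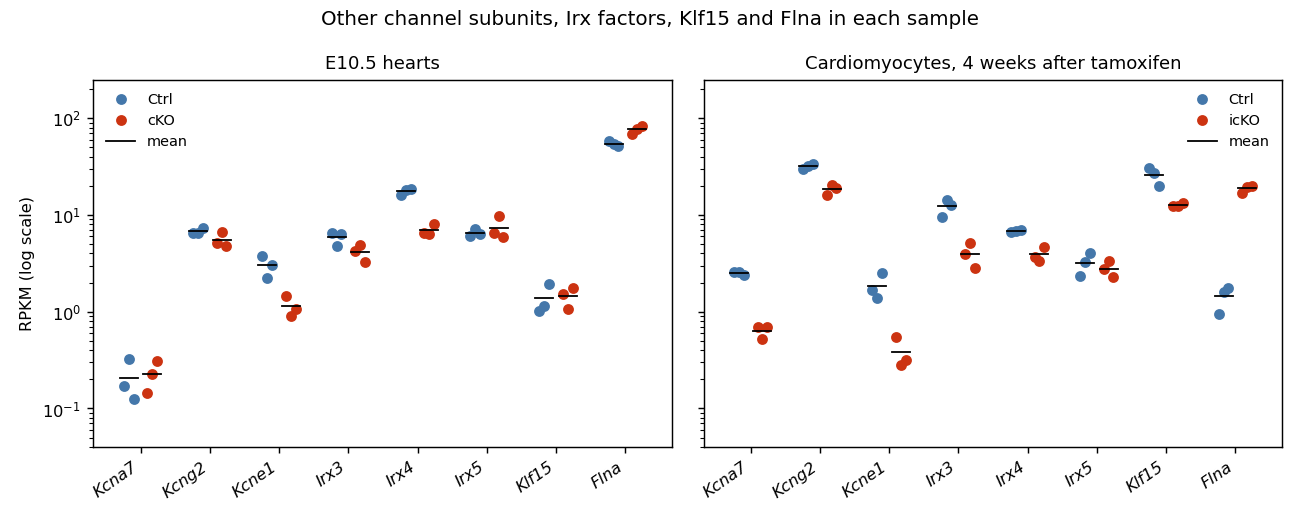
RPKM on a log axis in every sample for 8 of the partner genes, E10.5 hearts at left and adult cardiomyocytes at right, with Ctrl in blue, knockout in red and group means as black lines. At 4 weeks the icKO samples lie below all Ctrl samples in Kcna7, Kcng2, Kcne1, Irx3, Irx4 and Klf15 and above them in Flna (17.04 to 19.8 against 0.953 to 1.77 RPKM).

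Of 5 anchoring and trafficking partners, 4 were tested at 4 weeks. Flna, which encodes the actin cross-linker filamin A, a binding partner of Kv4.2, was 0.953, 1.60 and 1.77 RPKM in Ctrl and 17.04, 19.5 and 19.8 RPKM in icKO (log2 fold change 3.66, SE 0.201, limma adjusted p = 7.654e-07). Flna is abundant in non-muscle cells, and the fibroblast markers were higher in the same samples, as given above. Whether these differences are linked was not tested. At E10.5 Flna was 57.7, 54.0 and 51.2 RPKM in Ctrl hearts and 69.1, 77.5 and 83.7 RPKM in cKO. It was not called at that stage (log2 fold change 0.50, SE 0.119, limma adjusted p = 0.04924). The 8 fibroblast markers there summed to 90.6–165.7 RPKM in Ctrl and 116.1–132.5 RPKM in cKO. At 4 weeks Actn2, Cav3 and Dlg1 were not called, with log2 fold changes of 0.86, 0.83 and 0.35 in the deposited RPKM, where the median of all genes was 0.57. After median-ratio scaling these values were 0.32, 0.29 and −0.19, and after quantile normalization 1.68, 0.34 and −0.17. Actn2 was called higher under the latter alone of the scalings, and Dlg1 changed sign under both.

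The genes whose pattern over the 6 adult samples lay closest to a member were found by the root mean square difference of log2(RPKM + 0.1), each gene centred on its Ctrl mean. For Kcnip2 they were Mylk4 and Ces1d at 1.06 and 1.86 log2 units. Mylk4, a myosin light chain kinase family gene, was 49.8 RPKM in Ctrl and 0.374 RPKM in icKO by group means. For Kcnd2 they were Doc2g at 0.04 and Smtn at 0.09, for Kcnd3 Ptpmt1 and Nfic at 0.04 each, and for Kcnv2 Ogdhl at 0.14 and Rhbdl3 at 0.16. At E10.5, where the members were low, Doc2g was 8.29 RPKM in Ctrl hearts and 3.43 RPKM in cKO by group means, and Mylk4 was 0.0447 and 0.0230 RPKM.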

How the data were processed

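RNA was measured by sequencing of ribosome-depleted total RNA in 12 samples, 3 per group. Per the labels and the study's methods, reads were mapped to GRCm38/mm10 and counted on genes. The submitters' processing notes name cutadapt 2.6, STAR 2.5.3a, HOMER 4.11.1 and DESeq2 1.12.4, with no parameters. The authors deposited RPKM for 20775 genes by symbol, in 1 table per stage. The tables also hold the authors' log2 fold changes and adjusted p-values, which were not used, and a mean RPKM column. RPKM divides by a library total, so abundant genes that change shift the other genes.

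The 6 members, the gene lists, the tests and the alternatives were chosen with earlier results of these data known. In the E10.5 table the knockout columns carry the name icKO and were taken as the cKO samples of that stage. The tables were fitted one at a time with limma 3.58.1 (lmFit and eBayes, trend on; R 4.3.3). Values were log2(RPKM + 0.1), a gene entered when its 6 samples averaged more than 1 RPKM, and p values were adjusted over every gene entered (Benjamini-Hochberg). Calls needed both adjusted p under 0.05 and more than 1 unit of log2 fold change. The study's fit of counts was not run, since RPKM are not counts. A fold change on this scale understates that of low genes. The standard errors of members below the filter are from their own samples.

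Library depth was estimated as the number of reads at which low values lie nearest to whole reads. Between 67.9% and 75.6% of those values lay within 0.1 of a whole read. Reads per gene are estimates from RPKM, depth and transcript length in GENCODE M21 (for Kcnip2, 2012 bases from the spacing of its own values). The fit and the depth estimate were tested on simulated data. Text names the members, Med30, called partner genes, relatives of a member, and the 2 genes nearest in pattern to each member with a Ctrl mean above 1 RPKM. Where others are named, they were chosen after their values were seen. Promoters came from RefSeq (5 of the 6 members matched) and were searched on both strands for 7 motifs. Alternatives changed the pseudocount (1 or 0.01), the filter (none, or an average above 5 RPKM), the scaling (3 others) or the eBayes trend, added a replicate block, or left out each sample. Python 3.11.15, pandas 2.3.3, numpy 2.4.6, scipy 1.17.1 and matplotlib 3.10.9 were used. Results of some items of the lists are not reported here.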

Additional observations from a re-analysis of the deposited data

Results flagged for a closer look

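Kcnd3 was marked because every cKO sample at E10.5 lay below the Ctrl mean and every icKO sample at 4 weeks lay above it, with log2 fold changes of −0.64 and 0.13, a difference of 0.77. The difference between stages was not tested. With the median of its table subtracted, Kcnd3 stood at −0.52 at E10.5 and at −0.44 at 4 weeks.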

How the results depend on the processing

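At 4 weeks the count of members called lower was 3, and 2 with a mean RPKM above 5, which removed Kcnv2. The choice of members fixed their direction, so this is no sign of stability. At E10.5 no member was called under any alternative, but most alternatives could call none, because the filter had removed all 6. With no filter all 6 were tested, and in every other alternative at most 1 was. The samples share replicate numbers, but same-numbered samples did not deviate together in every pair (r of 0.153, 0.043 and 0.045 at 4 weeks, 0.012, 0.101 and −0.07 at E10.5), and at neither stage did every sample correlate best with its own number. With the replicate block the counts were 3 members and 4 lower and 1 higher partner genes at 4 weeks, and 2 lower partner genes at E10.5, as without it. Partner genes called lower at E10.5 numbered 1 instead of 2 with a pseudocount of 1, with no filter and with a mean RPKM above 5, and 1 to 2 when each sample was left out, since Kcne1 was lost while Irx4 was kept. At 4 weeks those called lower numbered 2 with a mean RPKM above 5, which removes Kcna7 and Kcne1, and 7 with each other scaling, against 4, and 3 to 5 when each sample was left out. Those called higher numbered 4 with no filter and 2 with quantile normalization, against 1. Med30 was called lower under every alternative, from −2.38 to −3.21 at E10.5 and from −1.11 to −1.93 at 4 weeks. Of the members' fold changes, those of genes near zero moved most with the pseudocount. Kcnip2 was −5.68 with a pseudocount of 1 and −8.79 with 0.01 at 4 weeks, and −0.24 and −2.12 at E10.5, since its knockout values were at about the level of a few reads.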
